A study of Mus musculus with 2 samples.

Results

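The 9 genes described here encode proteins of central nervous system myelin and of the mature oligodendrocyte that makes it: Mbp, Mobp, Mal, Cldn11, Mag, Mog, Cnp, Gjc3 and Trf. They were taken by symbol from the authors' deposited table, in the rows pairing the mutant and wild-type libraries of EdU-labelled nuclei, and all 9 were among its 24319 named genes. The study sequenced RNA from nuclei of the adult mouse dentate gyrus, the part of the hippocampus where new granule neurons are made. Mice of 8 weeks were wild-type or Kmt2d +/mut, and the latter are named Kmt2d+/Bgeo in the series' design text and called mutant below. They are heterozygous for a mutant allele of Kmt2d, which encodes a methyltransferase of lysine 4 of histone H3. Mice of both genotypes received EdU, a thymidine analogue taken up in S phase, at 150 mg/kg, and were sampled after 16 h. For each genotype 500 EdU-positive nuclei were sorted from a pool of 3 mice and made into 1 library by a modified Smart-seq2 protocol on polyadenylated RNA. With 1 library per genotype no difference below has a replicate check, and no test between genotypes was made.

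Oligodendrocytes wrap axons in a compacted membrane that speeds conduction. Precursor cells that still divide in the adult brain leave the cell cycle, pass through a premyelinating stage and then switch on the myelin genes under transcription factors such as SOX10 and MYRF. The proteins of the mature cell hold the compact layers together, seal the space between them, face the axon, carry lipids and iron, or link glial cells by gap junctions. Some myelin mRNAs, Mbp above all, are carried out into the processes, so RNA of nuclei is not a measure of the whole cell's RNA.

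Expression is given in FPKM, fragments scaled to transcript length and library size. The wild-type library held 5787 genes above 0 and the mutant library 5443, with median FPKM of 26.9 and 29.4 among them. Steps between low values put the depth near 219000 and 215000 fragments, assuming separate scaling of each library. Of all named genes, 66.9% were listed at 0 in both libraries. A listed 0 can also be a failed estimate, so such values are given as listed and no size of fold is given against them for a single gene. Counts by direction and medians of log2(FPKM + 1) ratios take a listed 0 as it stands. The targeted gene, Kmt2d, read 34.7 FPKM in the wild-type library and 23.5, or 67.8% of that, in the mutant library. Kmt2d thus lay within 2-fold, and the authors' deposited table did not test it. Coordinates below are those of GENCODE on mm10.

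The myelin genes were read unevenly, and no common direction ran through them. Mbp, Gjc3 and Mag were each within 2-fold between the libraries, Trf, Cldn11 and Mobp had values in the mutant library alone, Mal was higher in wild-type nuclei, Cnp had a low value in the wild-type library alone, and Mog was listed at 0 in both. Of the 9 genes, the wild-type library held 5 above 0 and the mutant library 7. In the wild-type library the order of levels was Mbp, Gjc3, Mal, Mag and Cnp, with the other 4 at 0. In the mutant library it was Gjc3, Mbp, Trf, Cldn11, Mag, Mobp and Mal, with Cnp and Mog at 0. The spread between libraries of 1 genotype is not known, so the ranks of neighbours in these orders are descriptive. In RNA pooled over nuclei, fewer cells of a type and less RNA per cell cannot be told apart.

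**Figure D1:**
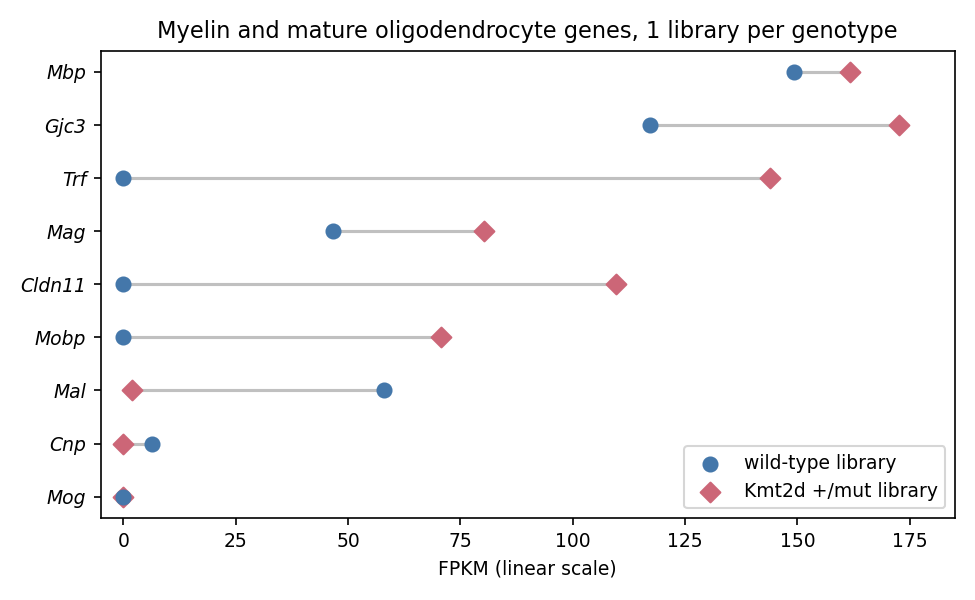
FPKM on a linear scale of the 9 genes in the wild-type library (circles) and the mutant library (diamonds), with 1 library per genotype and no error bars. Mbp, Gjc3 and Mag have values above 0 in both, Trf, Cldn11 and Mobp sit at 0 in wild-type nuclei, and Mal runs from 58.1 in wild-type nuclei to 1.90 in mutant nuclei.

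Among proteins that hold the myelin layers together, Mbp, which encodes myelin basic protein and joins the cytoplasmic faces of the membrane, stood at 149 FPKM in wild-type nuclei and 162 in mutant nuclei. It lay at percentile 87.1 of the genes above 0 in wild-type nuclei and at 89.1 in mutant nuclei. The ratio of mutant to wild-type was 1.08, with an exact binomial 95% interval of 0.718 to 1.63. That interval covers counting error only, and rests on an estimated 49.3 and 52.3 fragments if the shortest coding transcript over 800 bases carried the reads. Mbp (chromosome 18, 82475146 to 82585637, plus strand) has 14 annotated coding transcripts, and the gene also encodes golli proteins, which are made outside myelin too. A gene-level value does not separate these from classic myelin basic protein.

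Mobp, which encodes myelin-associated oligodendrocyte basic protein and lies on chromosome 9 (120149707 to 120181484, plus strand), was at 70.6 FPKM in mutant nuclei and listed at 0 in wild-type nuclei. This corresponds to between 20.6 and 47.2 estimated fragments, depending on the transcript. The authors' deposited table tested it and did not call it, at a q-value of 0.369. Of the 2 basic protein genes of compact myelin, Mbp was thus above 0 in both libraries and Mobp in 1.

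Mal and Cldn11 encode proteins that cross the membrane 4 times. Mal, a proteolipid that helps sort proteins and lipids to myelin, is on chromosome 2 (127633226 to 127656695, minus strand) and stood at 58.1 FPKM in wild-type nuclei and 1.90 in mutant nuclei. On its transcript of 2778 bases these values correspond to 33.1 and 1.06 estimated fragments. The mutant to wild-type ratio was 0.0327, with a counting interval of 0.00076 to 0.185. Although this was the widest gap among the 4 members above 0 in both libraries, the authors' deposited table does not call it, at a q-value of 0.585. Cldn11, the claudin of the tight junction strands between myelin layers, is on chromosome 3 (31149920 to 31164324, plus strand). It was at 109.6 FPKM in mutant nuclei, about 39.8 fragments, and listed at 0 in wild-type nuclei. Cldn11 is called higher in the authors' deposited table, at a q-value of 0.029.

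Of the surface proteins, Mag, a sialic-acid-binding adhesion molecule of the myelin layer next to the axon (chromosome 7, 30899176 to 30914873, minus strand), was at 46.7 FPKM in wild-type nuclei and 80.2 in mutant nuclei. The ratio was 1.72 with a counting interval of 0.944 to 3.21, on an estimated 18.7 and 31.5 fragments over its shortest coding transcript. Over its longest coding transcript the interval was 1.01 to 3.03, so whether it covers 1 depends on the transcript assumed. In the authors' deposited table Mag was tested and not called, at a q-value of 0.642. Mog, which encodes the outermost myelin glycoprotein and appears late in maturation (chromosome 17, 37010743 to 37023398, minus strand), was listed at 0 in both libraries and was not tested by the authors.

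Cnp, a phosphodiesterase that keeps cytoplasmic channels open within myelin, had the lowest mean FPKM over both libraries after Mog. It was at 6.35 FPKM in wild-type nuclei, which is about 3.03 fragments, and listed at 0 in mutant nuclei, and the authors' deposited table did not test it. Cnp is on chromosome 11 (100574904 to 100591729, plus strand). It counts as lower by its listed values below, but so few fragments give no direction.

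Gjc3 encodes connexin 29, a connexin of myelinating glia, and is on chromosome 5 (137953461 to 137963098, minus strand). It stood at 117 FPKM in wild-type nuclei and 172 in mutant nuclei, at percentiles 82.9 and 90.0 of the genes above 0 in each. With an estimated 98.1 and 142 fragments on its single coding transcript of 4002 bases, Gjc3 was among the better counted members. Its ratio was 1.47 with a counting interval of 1.13 to 1.93. No molecular identifiers are described, so PCR copies may be counted as molecules, which the interval does not cover. The authors' deposited table does not call it, at a q-value of 0.808.

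Trf encodes transferrin, the iron carrier that oligodendrocytes make in the rodent brain. It lies on chromosome 9 (103204001 to 103230444, minus strand) and was at 144 FPKM in mutant nuclei, between 66.8 and 74.0 estimated fragments, against a listed 0 in wild-type nuclei. The authors' deposited table calls Trf higher, at a q-value of 0.029. Choroid plexus epithelium makes transferrin as well. Of 8 choroid plexus markers, Ttr, which encodes transthyretin, was at 382 FPKM in mutant nuclei and listed at 0 in wild-type nuclei, with a higher call in the authors' deposited table. Enpp2, which oligodendrocyte lineage cells also express, stood at 143 in mutant nuclei and 167 in wild-type nuclei, and the other 6, among them Kl, Folr1 and Otx2, were listed at 0 in both. The list summed to 166.9 FPKM in wild-type nuclei and 525 in mutant nuclei, and its part in the Trf value was not tested.

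Counted together, 8 of the 9 genes reached an FPKM of 1 in either library. Cldn11, Trf and Mobp, 3 of the 8, counted as higher in mutant nuclei by 2-fold or more through a listed 0 in wild-type nuclei. Mal and, through a listed 0 in mutant nuclei, Cnp, 2 of the 8, counted as lower by as much, and the 3 others, Mbp, Mag and Gjc3, lay within 2-fold. Over all 7903 genes past the same minimum, 40.9% were higher by 2-fold or more, 44.5% were lower by as much and 14.6% lay within 2-fold. The 3 higher genes are 37.5% of the 8, near the share over all genes. The median of log2((mutant FPKM + 1)/(wild-type FPKM + 1)), a scale that understates differences of low genes, was 0.66 over the 8 genes and -0.23 over all genes past the minimum. Over genes above 0 in both libraries the median was 0.33 for the 4 members and 0.017 for all 3191 genes. This leaves out every listed 0. Of the 4 members, 0 were higher by 2-fold or more, 1 was lower by as much and 3 lay within 2-fold. Of the 3191 genes, 1033 were higher, 997 lower and 1161 within 2-fold. Of the 8 genes 4 were above 0 in both libraries, where 40.3% of all genes past the minimum were. The 3 listed at 0 in wild-type nuclei alone and the 1 in mutant nuclei alone compare with 27.8% and 31.9% of all genes.

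The authors' deposited table tested 7 of the 9 genes and calls 2, Cldn11 and Trf, both higher. It calls 27.0% of all 3249 named genes it tested, 12.8% as higher and 14.3% as lower, so 2 of 7 is near the background. Each of the 878 genes called in the authors' deposited table was listed at 0 in 1 library, and of the 1826 tested genes above 0 in both it calls 0, with 2 at an unadjusted p-value under 0.05. Among genes whose higher value lay between 50 and 200 FPKM, a range chosen after the values were seen, 47.3% were listed at 0 in the other library. The 3 member genes listed at 0 in wild-type nuclei alone have their higher values in that range.

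The FPKM of the 9 genes summed to 377 in wild-type nuclei and 740.3 in mutant nuclei, a ratio of 1.96, and made up 0.0854% and 0.190% of the FPKM of all genes. Most of that gap came from Trf, Cldn11 and Mobp. Over the 4 genes above 0 in both libraries the sums were 371 and 416.

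**Figure D2:**
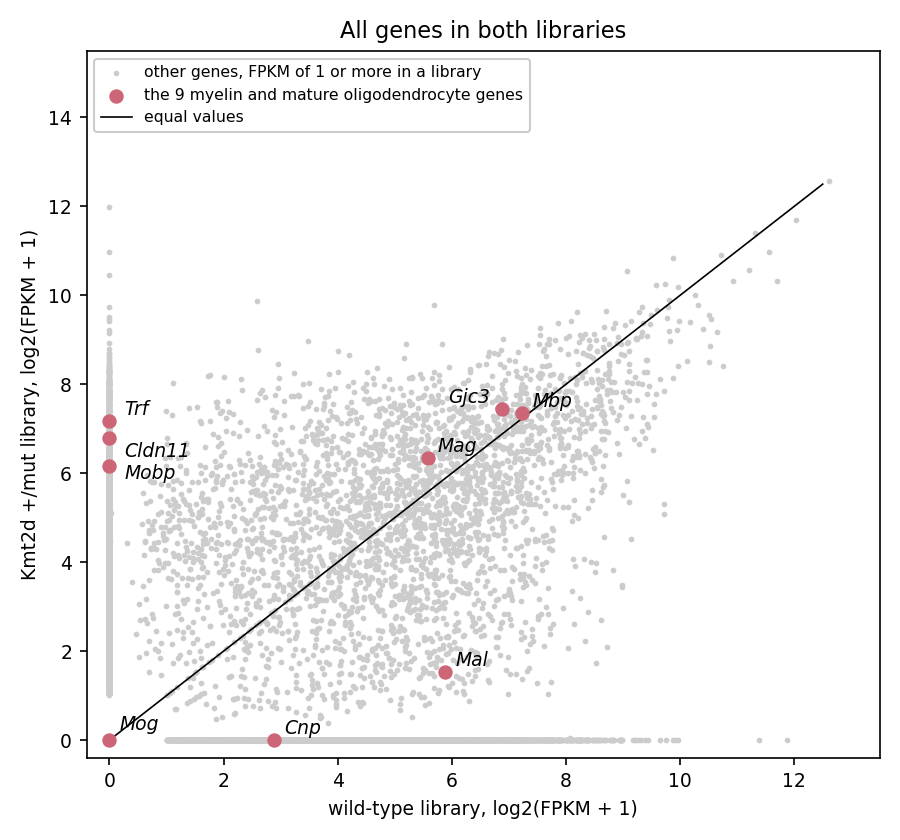
Each gene's log2(FPKM + 1) in the wild-type library (x axis) and the mutant library (y axis), for all genes reaching an FPKM of 1 in a library (grey) and the 9 myelin and mature oligodendrocyte genes (red, named). Mbp, Gjc3 and Mag lie near the line of equal values, and Trf, Cldn11 and Mobp lie on the axis of genes listed at 0 in wild-type nuclei, which held 27.8% of all genes past the minimum.

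The start sites of these genes can be set beside their readings. RefSeq promoters (GRCm38.p6, the mm10 build) were matched by symbol for 7 members at 9 start sites. The 250 bases before the start are shown for the 2 members read in mutant nuclei alone that had an entry, for Mal, which was higher in wild-type nuclei, for Cnp, read at a low value in wild-type nuclei alone, and for Mag, which was above 0 in both. Capitals mark matches, on either strand, to ACAAAG (a core bound by SOX factors), CTGGCAC or CTGGTAC (bound by MYRF), CAGCTG (an E-box of the kind bound by OLIG and other bHLH factors) or TATAAA (the TATA box). Sequences run 5′ to 3′ on the strand of the gene.
Mobp (chr9:120149492-120149741, plus strand): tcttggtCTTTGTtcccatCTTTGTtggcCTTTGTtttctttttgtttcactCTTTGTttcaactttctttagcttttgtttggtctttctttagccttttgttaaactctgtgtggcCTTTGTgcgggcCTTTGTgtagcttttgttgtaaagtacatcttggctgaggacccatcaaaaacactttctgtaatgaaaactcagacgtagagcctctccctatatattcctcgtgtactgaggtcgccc
Cldn11 (chr3:31149670-31149919, plus strand): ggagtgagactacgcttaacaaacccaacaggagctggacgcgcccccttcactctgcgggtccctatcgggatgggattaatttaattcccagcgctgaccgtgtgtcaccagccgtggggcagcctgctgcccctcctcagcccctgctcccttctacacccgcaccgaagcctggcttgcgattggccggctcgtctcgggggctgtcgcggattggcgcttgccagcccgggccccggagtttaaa
Mal (chr2:127656696-127656945, minus strand): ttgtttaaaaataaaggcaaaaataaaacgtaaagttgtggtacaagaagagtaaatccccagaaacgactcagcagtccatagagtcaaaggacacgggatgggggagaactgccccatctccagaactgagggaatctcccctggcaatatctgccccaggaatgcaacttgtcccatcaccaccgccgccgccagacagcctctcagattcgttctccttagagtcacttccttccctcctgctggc
Cnp (chr11:100574689-100574938, plus strand): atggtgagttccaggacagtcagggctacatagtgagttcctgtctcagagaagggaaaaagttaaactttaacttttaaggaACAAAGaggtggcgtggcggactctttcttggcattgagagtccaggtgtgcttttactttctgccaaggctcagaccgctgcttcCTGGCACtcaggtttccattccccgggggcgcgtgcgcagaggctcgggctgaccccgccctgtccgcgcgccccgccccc
Mag (chr7:30914864-30915113, minus strand): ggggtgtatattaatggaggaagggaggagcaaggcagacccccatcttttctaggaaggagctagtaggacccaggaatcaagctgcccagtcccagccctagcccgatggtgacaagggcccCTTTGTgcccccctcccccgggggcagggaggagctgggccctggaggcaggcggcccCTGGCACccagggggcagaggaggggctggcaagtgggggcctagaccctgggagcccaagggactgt

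Mobp holds 6 matches to the SOX core, all on the opposite strand, from position -243 to -115 before the start. Cldn11 and Mal hold none of the searched letters, although their readings went in opposite directions. Cnp and Mag each hold 1 match to the SOX core and 1 to the first MYRF sequence. Of the 9 start sites, 4 hold the SOX core (Mobp, Cnp and 2 overlapping Mag windows) and 4 hold a MYRF sequence (Mog, Cnp and the same 2 Mag windows). Among all 32841 promoters, 16.5% hold the SOX core and 5.93% hold a MYRF sequence. The E-box and the TATA box, in 13.0% and 12.4% of all promoters, were in none of the 9. A match is a description of the letters and not a bound site.

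Other genes of the oligodendrocyte lineage were also read unevenly, in both directions. Across 5 further lists with 67 genes, 48 reached an FPKM of 1, of which 20 were higher in mutant nuclei by 2-fold or more, 16 were lower by as much and 12 lay within 2-fold. Over all genes past the minimum, 40.9% were higher, 44.5% lower and 14.6% within 2-fold, so uneven readings were not particular to the lineage. The median log2 ratio of the 48 genes was 0.10, and the FPKM of the 5 lists summed to 7654 in wild-type nuclei and 7766 in mutant nuclei. The authors' deposited table tested 33 and calls 12, of which 5 are higher and 7 lower. Of all genes it tested, it calls 27.0%, 12.8% as higher and 14.3% as lower.

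Of 20 other genes of the myelin membrane, 7 were above 0 in both libraries and 7 at 0 in both. The tetraspanin gene Cd9 stood at 2535 and 2708 FPKM, the plasmolipin gene Pllp at 474 and 488, and the junctional adhesion gene Jam3 at 455 and 619, in wild-type and mutant nuclei respectively. The authors' deposited table calls Tspan2 higher, at 60.3 FPKM against a listed 0, and Pmp22, Cmtm5 and Mpzl1 lower, at 99.1, 296 and 317 FPKM in wild-type nuclei against a listed 0. Ermn, Opalin and Hapln2, mature oligodendrocyte markers picked out with their values known, belong to the 7 listed at 0 in both libraries. Mog was also listed at 0 in both. Of all named genes, 66.9% were listed at 0 in both, a higher share than 7 of 20. These listed values thus do not set mature markers apart from other genes.

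Among 12 genes of myelin lipid metabolism, Cers2, the ceramide synthase of very long chains, was at 318 FPKM in mutant nuclei and listed at 0 in wild-type nuclei, without a call. Degs1, which makes ceramide from dihydroceramide, ran the other way at 413 in wild-type nuclei against a listed 0, with a lower call in the authors' deposited table. The fatty acid desaturase gene Scd2 stood at 229 in wild-type nuclei and 140.2 in mutant nuclei, and Qdpr at 345 and 277. Of 15 further genes of mature oligodendrocytes, 10 reached an FPKM of 1, 6 of them with values in mutant nuclei alone and 1 in wild-type nuclei alone. Over all genes past the minimum, 27.8% had values in mutant nuclei alone and 31.9% in wild-type nuclei alone. Of the 3 genes of this list above 0 in both libraries, 1 was higher in mutant nuclei by 2-fold or more and 2 were lower by as much. Of all 3191 named genes above 0 in both, 1033 were higher, 997 lower and 1161 within 2-fold. The authors' deposited table calls Gsn, Gpr37 and Dbndd2 higher, at 85.5, 82.2 and 108.4 FPKM against a listed 0. In the same list Tubb4a stood at 8.91 in wild-type nuclei and 217 in mutant nuclei, while Cryab stood at 243 and 61.6 and the deacetylase gene Sirt2 at 289 and 82.0.

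Of 10 transcription factors of the lineage, 5 were above 0 in both libraries and 1 in neither. Olig1 stood at 293 FPKM in wild-type nuclei and 197.5 in mutant nuclei, Sox10 at 32.3 and 78.3 and Zfp488 at 5.50 and 69.1. The authors' deposited table calls Olig2 higher, at 77.8 FPKM in mutant nuclei against a listed 0, and Sox8 and Zfp536 lower, at 51.6 and 72.9 in wild-type nuclei against a listed 0. Of the genes of newly formed oligodendrocytes, Bcas1 stood at 287 in wild-type nuclei and 254 in mutant nuclei, Gpr17 at 47.0 and 130.9, and Tnr at 83.4 and 24.6. Tmem163 was at 370.4 in wild-type nuclei and listed at 0 in mutant nuclei, which the authors' deposited table calls lower.

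Precursor markers gave the fullest reading of the lineage, with 10 of 10 above 0 in both libraries, where the myelin genes had 4 of 9. Of all genes past the minimum, 40.3% were above 0 in both. The difference between these lists was not tested, and the lists were chosen with earlier results of these data known. Pdgfra, the receptor that marks oligodendrocyte precursors, stood at 266 FPKM in wild-type nuclei and 231 in mutant nuclei, Ptprz1 at 588 and 287, Matn4 at 539.7 and 56.0, and the sialidase gene Neu4 at 189.6 and 338. Of the 10 precursor markers, 0 were higher in mutant nuclei by 2-fold or more, 4 were lower by as much and 6 lay within 2-fold. Their median log2 ratio was -0.76. Of all 3191 named genes above 0 in both libraries, 1033 were higher, 997 lower and 1161 within 2-fold, with a median of 0.017. The 10 precursor markers summed to 2252 FPKM in wild-type nuclei and 1420.2 in mutant nuclei. The authors' deposited table tested 9 of them and calls 0, and 0 had an unadjusted p-value under 0.05. It also calls 0 of all 1826 tested genes above 0 in both libraries, with 2 at an unadjusted p-value under 0.05. The absence of calls is thus no result about precursor markers.

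**Figure D3:**
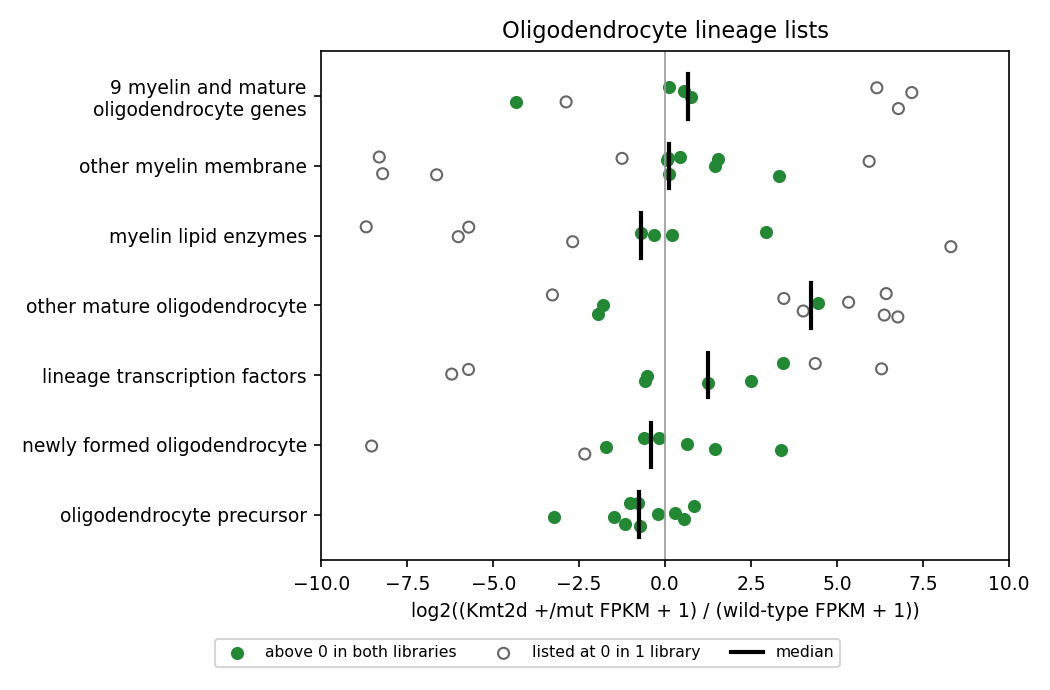
Log2((mutant FPKM + 1)/(wild-type FPKM + 1)) of genes that reach an FPKM of 1 in a library, for the myelin and mature oligodendrocyte genes and 6 other lists of the lineage. Filled points were above 0 in both libraries and open points were listed at 0 in 1. Bars are medians over both kinds of point, and the vertical scatter within a list has no meaning. The median was 0.66 for the 8 plotted of the 9 genes, and 0.33 for the 4 above 0 in both libraries. For precursor markers, all above 0 in both, it was -0.76. Over all 3191 named genes above 0 in both libraries it was 0.017.

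Other cell types were read to different degrees beside the myelin genes. Of 12 astrocyte and radial glia markers 5 were above 0 in both libraries, with Fabp7 at 194 FPKM in wild-type nuclei and 443 in mutant nuclei and Aldoc at 209.6 and 294. Of 12 microglia markers 4 were above 0 in both and 6 at 0 in both, among them Cx3cr1, Tmem119 and Aif1. The lysosomal protease gene Ctss stood at 372 in wild-type nuclei and 238 in mutant nuclei, and Trem2 at 10.2 and 181. Summed FPKM in mutant nuclei over that in wild-type nuclei was 1.54 for the astrocyte list and 1.57 for the microglia list, next to 1.96 for the myelin genes. The 12 neuron markers, led by Snap25 at 685 and 539 and Gria2 at 479 and 369.6, had a ratio of 0.750. Of the 10 neuron markers past the minimum, 3 were higher by 2-fold or more, 3 lower by as much and 4 within 2-fold. Their median log2 ratio was 0.005. Over all genes past the minimum, 40.9% were higher, 44.5% lower and 14.6% within 2-fold. Over all named genes the ratio of summed FPKM was 0.882, and the sum of each of these lists includes genes listed at 0 in 1 library alone. All 10 endothelial and mural markers were listed at 0 in both. Of 12 markers of cycling cells 3 were above 0 in both, and 4 (Pcna, Mcm2, Mcm5 and Mcm6) were listed at 0 in both. The highest by mean FPKM were Mcm3, at 33.6 in wild-type nuclei against a listed 0, and Rrm2 at 4.56 and 30.1. The part of cell make-up in the values of the myelin genes was not tested.

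**Figure D4:**
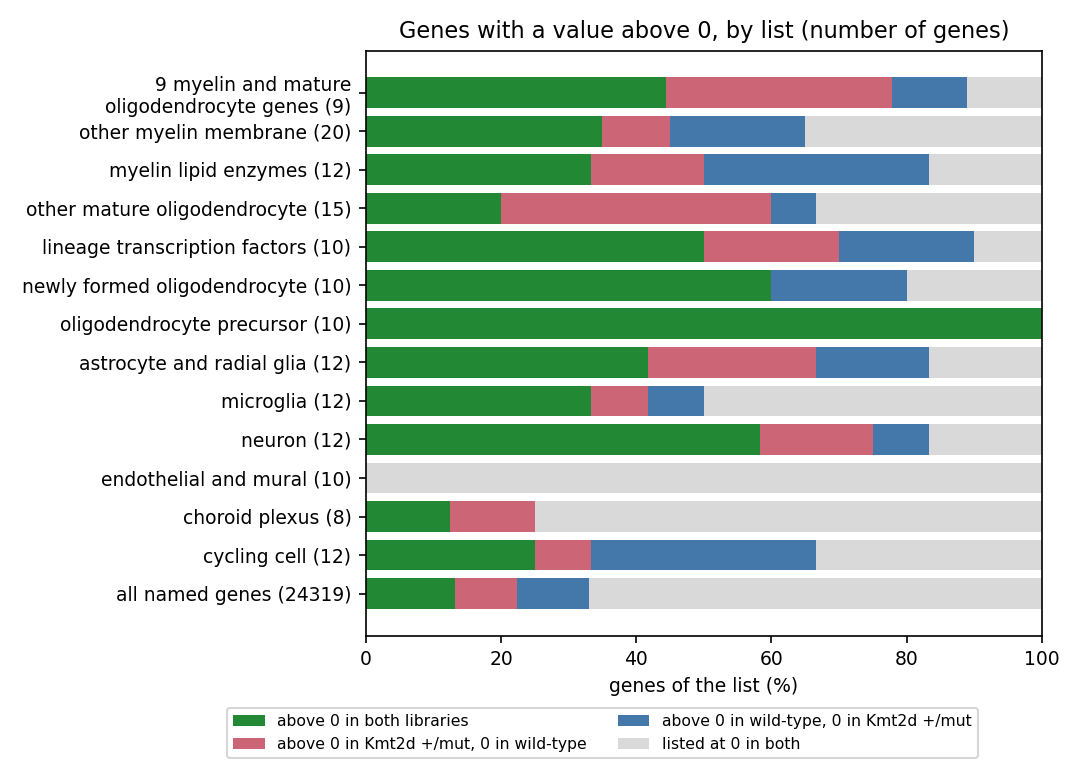
Share of the genes of each list, in percent, that were above 0 in both libraries (green), in mutant nuclei alone (red), in wild-type nuclei alone (blue) or in neither (grey), with the number of genes in brackets. The 9 myelin and mature oligodendrocyte genes split into 4, 3, 1 and 1, the 10 precursor markers were all above 0 in both, and the 10 endothelial and mural markers were all at 0.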

How the data were processed

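RNA of EdU-positive dentate gyrus nuclei was measured in 2 libraries, 1 per genotype. HISAT2, Cuffnorm, Cuffdiff and build mm10 are named as used, per the submitters' processing notes. Their versions, the annotation and the library scaling were not given in the sources used here. Values are FPKM as deposited by the authors in Cuffdiff's layout, beside the q-value and p-value of their test. The table's 4 other libraries were not used, and 27 of 24346 entries with a date for a gene name were left out.

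From these values ratios, counts and medians were computed in Python 3.11.15 (pandas 2.3.3, scipy 1.17.1), with a pseudocount of 1 and a minimum FPKM of 1 in at least 1 library. Fragments were estimated from steps between low values of genes with 1 transcript over 800 bases. With 180 bases taken off each length, 1 fragment was worth 4.56 FPKM on 1 kb in the wild-type and 4.65 in the mutant library, and 75.7% of 115 and 74.4% of 90 low values lay within 0.1 of a whole number. The fit was tested on simulated data. Exact 95% intervals use these fragments and cover counting error only. Coordinates and transcripts are GENCODE's on the same build. The labels describe neither strand marking nor molecular identifiers.

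The members and lists were chosen with earlier results of these data known. All 9 members are named, as are the 4 genes of highest mean FPKM and any called gene from each of 6 other lineage lists, and the 2 highest from each other list; 1 gene that the rule names is not reported here. Genes outside this rule are said to be named after their values were seen, or serve as defining markers. With 2 libraries no genes of like pattern were sought. Alternatives changed the pseudocount, minimum, fold and scaling.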

Additional observations from a re-analysis of the deposited data

How the results depend on the processing

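The numbers of myelin genes higher by 2-fold or more (3), lower by as much (2) and closer than 2-fold (3) were the same with a 4-fold limit, with FPKM scaled to the same sum and with a pseudocount of 1 in the ratio. Cldn11, Trf, Mobp and Cnp rest on a listed 0, which counts as past any fold, and Mal differed by 30.6-fold. A 4-fold limit or scaling could not move these genes. Nor could a 4-fold limit move Mbp, Mag and Gjc3, which already lay within 2-fold. A pseudocount of 1 brings ratios closer to 1, so it could not move Mbp, Mag and Gjc3 either. It also could not move a gene with a listed 0 and another value above 1. With the 4-fold limit and the pseudocount the counts were thus fixed in advance, apart from Mal with the pseudocount. Mag came nearest to the 2-fold limit, with a ratio of 1.95 after scaling. The median log2 ratio of the myelin genes, 0.66, was 0.67 with a pseudocount of 0.1, 0.60 with a pseudocount of 10 and 0.55 with no minimum. It was 0.84 with scaling to the same sum and 0.33 over the 4 genes above 0 in both libraries. A minimum FPKM of 5 kept the same 8 genes, so the median was the same by construction. The log2 ratio of the summed FPKM, 0.97, was 1.15 with scaling to the same sum and 1.34 without Mbp, the most abundant member. Over the 4 genes above 0 in both libraries, an alternative chosen after seeing the data, it was 0.17, as by construction the genes listed at 0 in 1 library drop out. Scaling to the same sum shifts the log2 ratio of the summed FPKM by 0.18. With the pseudocount, the ratio of a single gene shifts by less, and not at all where the mutant value is listed at 0. No paired analysis was possible because each genotype has 1 library, and for the same reason no library could be left out. Depth limits Cnp and Mal, with 3.03 and 1.06 estimated fragments in the library where each was lowest above 0.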
